A study of Mus musculus with 2 samples.

Results

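Plasmacytoid dendritic cells (pDCs) are described here among live immune cells sorted from irradiated mouse intestine, in 2 single-cell RNA libraries. A cell was chosen as a pDC by 4 limits on its unique molecular identifiers (UMIs, the counts of distinct captured RNA molecules): at least 3 UMIs of Siglech, at least 1 of Tcf4, none of Cd3e or Cd3d and none of Pax5. The members, selected on these measured UMI counts, were 53 of 19577 kept cells, 26 of 8681 in the Dpf2 knockout (KO) library and 27 of 10896 in the wild-type (WT) library. The KO library came from mice labelled as DPF2 knockouts and the WT library from wild-type mice, and all mice had received 10 Gy of X-rays. After digestion of the intestine, cells were stained with a viability dye and sorted as living immune cells on GFP or tdTomato, with or without the signal. How long after irradiation the tissue was taken is not in the labels, nor are the number, sex or age of the mice, the deleted stretch of Dpf2 or the promoter that drives a reporter or recombinase. Each genotype is 1 library, so no difference has a replicate check, no test was run, and every interval is a 95% interval that covers counting error only.

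pDCs are a rare dendritic lineage that circulates through blood and lymphoid organs and enters the small intestine with the chemokine receptor CCR9. They sense viral and self nucleic acids with endosomal Toll-like receptors and are known for fast secretion of type I interferon. Their identity is held by the E protein transcription factor E2-2, the product of Tcf4, which opposes the inhibitor Id2 that conventional dendritic cells use. Dpf2 encodes a PHD finger subunit of BAF chromatin remodelling complexes.

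The members matched their label by genes that had not chosen them. The check used 13 further pDC markers (Ccr9, Runx2, Bst2, Ly6d, Spib, Irf8, Klk1, Cox6a2, Klra17, Bcl11a, Pacsin1, Cd300c and Smim5). A member held UMIs of 5 to 13 of them with a median of 10, in the KO as in the WT library, against 0 to 6 with a median of 3 in 164 other dendritic cells. At least 3 of the 6 most restricted markers (Klk1, Cox6a2, Klra17, Pacsin1, Cd300c and Smim5) were found in 42 of 53 members, 22 KO and 20 WT, and in 0 of 164 other dendritic cells, 0 of 3598 T cells and 0 of 1243 B cells. Markers of other lineages were not all absent. The 7 type 2 conventional markers summed to 694 CPM (UMIs per 1000000) in KO and 622 in WT pDCs. In other dendritic cells they summed to 391 CPM in KO and 344 in WT. These markers include Irf4 and Sirpa, which is also on the list of pDC surface genes below. The other dendritic cells held only 0 KO and 8 WT type 2 cells, so these sums are not set against type 2 cells. The 4 plasma cell markers summed to 2645 CPM in KO and 12835 in WT pDCs. In other dendritic cells they summed to 3069 CPM in KO and 8579 in WT. Of the WT pDC UMIs of Igha and Jchain, both among these markers, 65.5% and 76.3% lay in 1 member. The part of the plasma cell markers in the results was not tested. Other markers of conventional type 1 cells had UMIs in members, Clec9a in 49.1%, Wdfy4 in 54.7% and Cadm1 in 60.4% of them, and the B cell factor Ebf1 had UMIs in 41.5%. Members had no UMI of Xcr1 or Tlr3 of conventional type 1 cells, of Ms4a1 of B cells, or of Tmem119 and Sall1 of microglia and other tissue macrophages that can carry Siglech. Siglech itself was seen at 3 to 26 UMIs per KO member with a median of 8, and at 3 to 12 per WT member with a median of 7. Tcf4 ranged over 4 to 72 UMIs in KO members with a median of 28, and over 13 to 60 in WT members with a median of 30. These Siglech and Tcf4 values chose the cells and are given as a description.

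**Figure D1:**
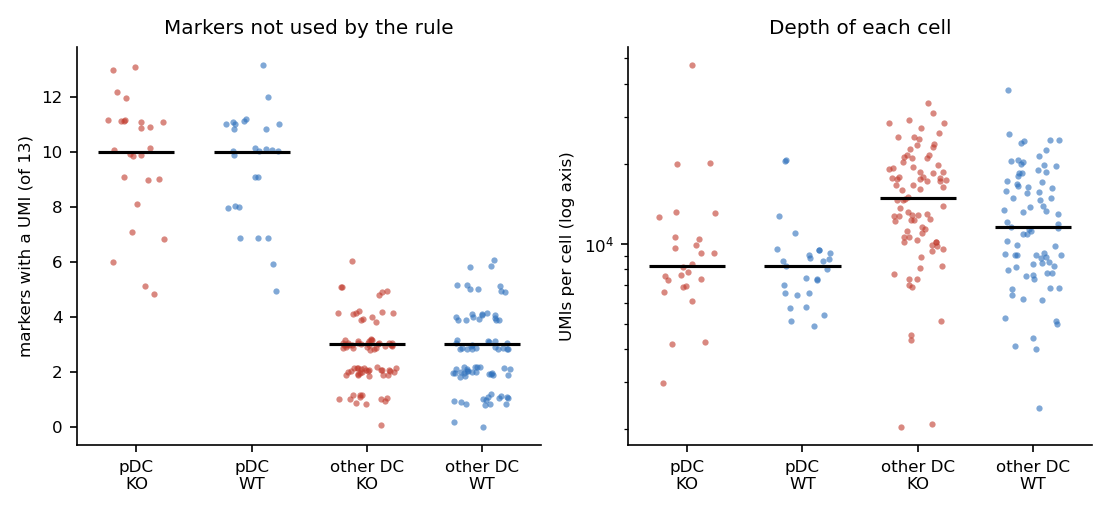
Number of 13 markers that the membership rule did not use with a UMI in each cell (left; points jittered) and UMIs per cell on a log axis (right), for pDCs and other dendritic cells (DC) of the KO and WT libraries; 1 point is 1 cell and the black line is the median. Members sit at 5 to 13 markers and other dendritic cells at 0 to 6, while the other dendritic cells are deeper by their medians (14816 UMIs in KO and 11520 in WT).

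Members were deep cells for these libraries. They had a median of 8261 UMIs and 2906 genes in KO and of 8228 UMIs and 2955 genes in WT, where all kept cells had medians of 4235 UMIs in KO and 4690 in WT. Together they held 276726 UMIs in KO and 237779 in WT. The limits that chose members act on UMI counts, and their part in the depth of members was not tested. The deepest KO member, with 47011 UMIs, held 17.0% of the KO pDC UMIs and 18 UMIs of markers of other cell types, 9 of them T cell genes. Scrublet called 0 KO members and 1 WT member as doublets. The libraries shared 24 barcodes, and none of these was a member's. Both libraries hold cells with Xist UMIs and cells with Y-linked UMIs, and members carried Xist alone in 7 KO and 4 WT cells, Y-linked genes alone in 9 KO and 11 WT cells, and both in 4 KO and 7 WT cells.

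Gene levels below are UMIs of a gene per 1000000 UMIs of the summed cells, written as CPM. Other dendritic cells are 84 KO and 80 WT cells with no UMI of Siglech, gated as conventional type 1 (cDC1, by Xcr1 and Clec9a), conventional type 2 (cDC2, by Cd209a and Flt3) or mature (by Ccr7 and Fscn1). Conventional type 1 cells made up 76.83% of them and 83.52% of their UMIs, and the makeup differed between the libraries. The cDC1 gate held 58 KO and 68 WT cells, the mature gate 26 KO and 4 WT cells and the cDC2 gate 0 KO and 8 WT cells, so a KO over WT value in other dendritic cells sets unlike mixtures side by side. A gene was compared from 100 UMIs over pDCs and other dendritic cells upward, if 10% or more of either set of cells had any. It was called higher or lower when the log2 ratio after adding 50 CPM passed 2-fold pooled and in each library. Of 4359 such genes, 257 (5.9%) were higher and 189 (4.34%) lower in pDCs, around a median log2 ratio of -0.01. Since Siglech and Tcf4 chose the cells, genes that go with them are described and not tested.

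The promoters of the genes that stood highest are shown because E2-2 and its partner HEB, the product of Tcf12, bind E-box letters. The sequences are RefSeq promoters of build GRCm38.p6, 250 bases before to 50 bases after a gene's start, read 5′ to 3′ on the gene's strand, and capitals mark CAGCTG or CACCTG on either strand. Mctp2 had the highest log2 ratio of the named genes, and its promoter (chr7:72306546-72306845, minus strand) holds both words. Ccr9 (chr9:123766961-123767260, plus strand) holds CACCTG, read here from the other strand as CAGGTG, and Tcf12 (chr9:72111770-72112069, minus strand) holds CAGCTG.
Mctp2: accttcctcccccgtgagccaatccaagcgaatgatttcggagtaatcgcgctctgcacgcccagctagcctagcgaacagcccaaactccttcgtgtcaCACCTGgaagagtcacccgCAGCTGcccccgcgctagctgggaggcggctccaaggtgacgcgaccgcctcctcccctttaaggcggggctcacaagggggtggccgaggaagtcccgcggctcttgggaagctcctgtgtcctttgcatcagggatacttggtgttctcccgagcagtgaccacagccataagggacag
Ccr9: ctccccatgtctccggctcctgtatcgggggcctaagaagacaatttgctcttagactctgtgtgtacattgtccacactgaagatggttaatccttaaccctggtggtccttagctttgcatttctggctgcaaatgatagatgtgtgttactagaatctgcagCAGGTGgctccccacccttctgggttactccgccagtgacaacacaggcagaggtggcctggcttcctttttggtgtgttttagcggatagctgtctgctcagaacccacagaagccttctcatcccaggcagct
Tcf12: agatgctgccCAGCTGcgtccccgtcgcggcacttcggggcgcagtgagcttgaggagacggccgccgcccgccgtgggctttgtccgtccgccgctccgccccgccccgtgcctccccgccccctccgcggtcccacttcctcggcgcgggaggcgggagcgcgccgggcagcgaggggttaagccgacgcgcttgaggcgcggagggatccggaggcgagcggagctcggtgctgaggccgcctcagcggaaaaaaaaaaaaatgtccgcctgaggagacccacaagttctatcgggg
Of the 20 genes with the highest ratios, all 20 had a promoter in the table, and 11 (55.0%) of these held CAGCTG or CACCTG, against 8810 of 27025 promoters of the table (32.6%). CAGCTG was in 5 (25%), against 16.1% of all promoters, and CACCTG was in 8 (40.0%), against 20.03% of all promoters. No stretch can match both words at once, and a match is a match of letters only.

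Most compared transcription factors of the pDC programme were higher in pDCs. Of 12 genes on the list, 10 were compared, and 7 (70%) were higher and 0 lower. All compared genes gave 5.9% higher and 4.34% lower. The median log2 ratio of the list, with Tcf4 included, was 1.79. That list holds Tcf4, which chose the cells, and without it 6 of 9 were higher. Tcf12, the E protein partner of E2-2, had 2154 CPM in KO pDCs and 2658 in WT pDCs, against 251 in KO and 213 in WT other dendritic cells, a fold of 10.2 (9.23 to 11.3). Runx2, which drives pDC exit from bone marrow in mice, had 459 CPM in KO and 412 in WT pDCs, against 117 in KO and 64.4 in WT other dendritic cells. Zeb2, a repressor needed for pDC commitment, had 1760 CPM in KO and 1522 in WT pDCs, against 416 in KO and 427 in WT other dendritic cells. All 3 of these were higher in pDCs of each library. Against mature cells alone, Runx2 and Zeb2 were not past 2-fold, at log2 ratios of 0.39 and 0.85. Mature cells held Runx2 at 344 CPM in KO (26 cells) and 141 in WT (4 cells). Bcl11a, an activator of Tcf4, was 9.77-fold higher (6.73 to 14.4), and Mef2c and Ikzf1 were also called. Spib, the Ets factor that maintains pDCs, had 77 UMIs in members and 7 in other dendritic cells, a fold of 50.2 (23.2 to 129), but was under the minimum of 100 UMIs. Irf8, which both lineages use, was 1.89-fold higher (1.67 to 2.13), short of the call. Id2, the opponent of E2-2, had 36.1 CPM in KO and 25.2 in WT pDCs, against 323 in KO and 164 in WT other dendritic cells.

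Most compared surface genes of pDCs were higher too. Of 23 listed, 16 were compared, with 12 (75%) higher and 0 lower, where all compared genes gave 5.9% and 4.34%. That list holds Siglech, which chose the cells and which the other dendritic cells had to lack, and without it 11 of 15 were higher. Pecam1 and Sirpa were past 2-fold neither against mature cells alone, at log2 ratios of 0.62 and 0.45, nor against cDC2 alone, at -0.28 and 0.92. Ccr9, the receptor for the small intestinal chemokine CCL25, had 1413 CPM in KO pDCs and 913 in WT pDCs, against 18.3 in KO and 37.5 in WT other dendritic cells, a fold of 44.1 (33.96 to 58.1). Every KO member and 25 of 27 WT members had a Ccr9 UMI, with a median cell at 1626 CPM in KO and 817 in WT and a range of 507 to 3974 in KO and 0 to 2302 in WT. The cells of the libraries overlapped between 507 and 2302 CPM. Bst2, the tetherin that pDC antibodies recognise, had UMIs in all 53 members and was 13.6-fold higher (11.4 to 16.1). Its levels were 1012 CPM in KO and 1119 in WT pDCs, against 66.5 in KO and 93.3 in WT other dendritic cells. Lair1, an inhibitory collagen receptor, was 37.0-fold higher (26.8 to 52.2). Klra17 (Ly49Q) was 16.9-fold higher (11.4 to 25.6), and Pecam1, also an endothelial gene, was 3.51-fold higher (2.86 to 4.30). Ly6c2 and Ly6d, surface antigens of mouse pDCs, were 60.7-fold (38.9 to 99.6) and 20.9-fold (15.4 to 28.6) higher. After thinning every cell to 1000 UMIs, Ccr9 was seen in 60.4% of members (46.0 to 73.6) and in 4.88% of other dendritic cells (2.13 to 9.39). Unthinned, the shares were 96.2% of members and 20.7% of other dendritic cells.

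Several transcripts had UMIs in members and none in other dendritic cells. Cox6a2, a heart and muscle type subunit of cytochrome c oxidase that is a known pDC marker, had 149 UMIs in members and 0 in other dendritic cells, at least 227-fold higher when 3 counts over all other dendritic cells are taken as the floor. Its levels were 286 CPM in KO pDCs and 294 in WT pDCs, and it was at 0.381 CPM in T cells and 0.249 in B cells. Klk1, a kallikrein protease gene, had 37 UMIs in KO and 48 in WT members and 0 in other dendritic cells, at least 129-fold higher. Smim5 had 19 UMIs in KO and 12 in WT members and Sla2, an adaptor that dampens receptor signalling, 43 in KO and 18 in WT members, and neither had any in other dendritic cells. None of these genes was used to choose the members. Of 25 genes on this list of further pDC genes, 15 were compared, with 11 (73.3%) higher and 0 lower. All compared genes gave 5.9% higher and 4.34% lower. Of the 11, Plac8 was not past 2-fold against cDC2 alone (log2 0.46), nor Tspan13 against mature cells alone (0.63). Pacsin1, a membrane bending protein that mouse pDCs need for full interferon output, was 76.9-fold higher (34.1 to 214). Blnk, the B cell linker adaptor, had 1706 CPM in KO and 951 in WT pDCs, against 39.7 in KO and 39.4 in WT other dendritic cells. Gzmb, a protease gene that human pDCs express, had 2 UMIs in KO and 1 in WT members.

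**Figure D2:**
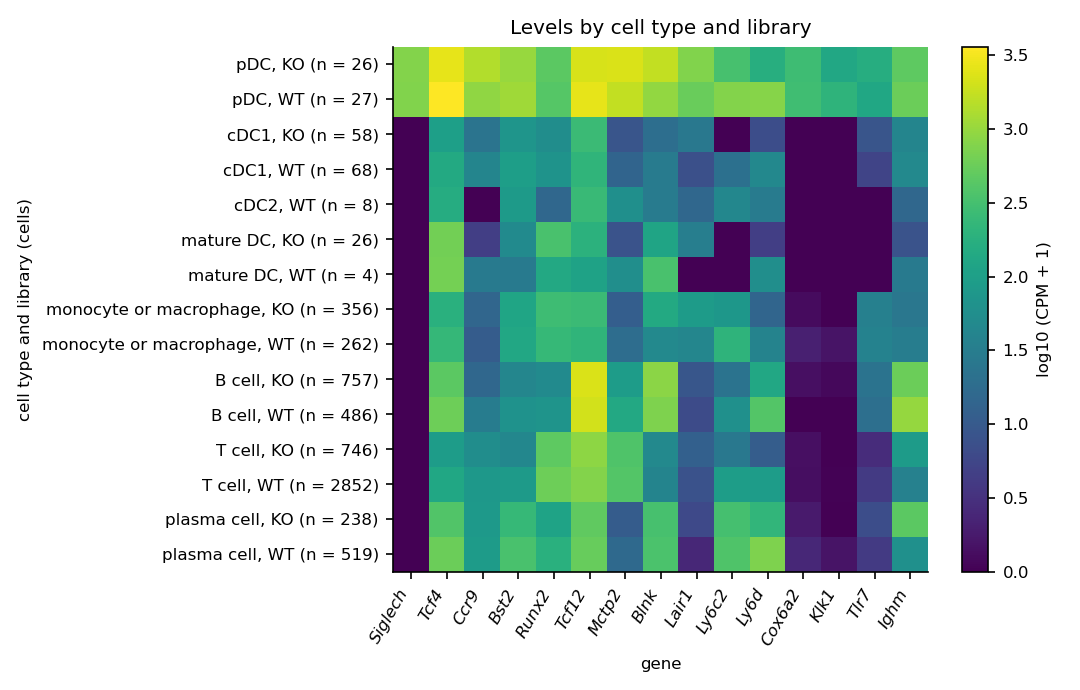
Levels of 15 genes (columns) on a colour scale of log10 of CPM plus 1, in the summed cells of each gated type and library (rows, KO above WT; n is the number of cells). Siglech and Tcf4 chose the pDCs and the other gates required Siglech to be 0; Cox6a2 and Klk1 are near 0 outside pDCs, while Tcf12 is also high in B cells and Ly6d in plasma cells.

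The 20 genes with the highest ratios included signalling and membrane genes that are less often used as markers. Mctp2, a calcium binding membrane protein of the endoplasmic reticulum, had 2222 CPM in KO pDCs and 1674 in WT pDCs, against 7.64 in KO and 17.3 in WT other dendritic cells. Its fold was 165 (114 to 250), and 52 of 53 members had a UMI. T cells also held Mctp2, at 400.4 CPM. Prkca, protein kinase C alpha, had 2306 CPM in KO and 1438 in WT pDCs, against 47.4 in KO and 47.1 in WT other dendritic cells. It was also present in T cells at 1272 CPM. Tex2, a lipid transfer protein of the endoplasmic reticulum, and Eepd1, a nuclease domain protein, were 32.5-fold (26.0 to 40.9) and 29.6-fold (24.03 to 36.8) higher and had UMIs in all members. Cybb, the catalytic chain of the phagocyte NADPH oxidase, had 1138 CPM in KO and 1148 in WT pDCs, against 111 in KO and 101 in WT other dendritic cells. Smc6, a subunit of the SMC5/6 genome maintenance complex, was 15.01-fold higher (12.4 to 18.3). The others were Ripor2, Ppm1h, Rell1, Slc41a2, Arhgap32, Ldlrad3, Bcr and Fam214a, with folds of 13.1 to 56.8, besides Ccr9, Blnk, Lair1, Ly6c2, Bst2 and Tcf12. The call had required all 20 genes to pass 2-fold in each library. Against cDC1, cDC2 and mature cells each alone, all 20 also stayed past 2-fold.

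**Figure D3:**
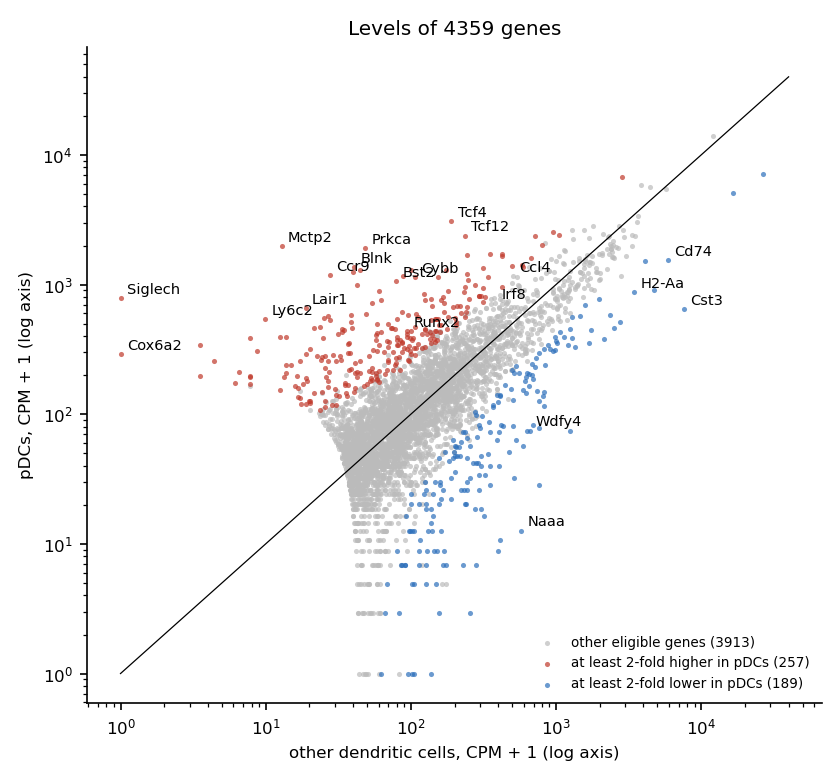
Levels of the 4359 compared genes in other dendritic cells (x) and pDCs (y), as CPM plus 1 on log axes, both libraries summed; the diagonal marks equal levels. The 257 higher genes (red) include Mctp2, Ccr9 and Bst2, and the 189 lower genes (blue) include Cst3, Naaa and Cd74; Siglech and Tcf4 are shown although they chose the cells.

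Most compared genes of nucleic acid sensing were not called. Of 28 listed, 27 were in the files and 16 were compared, with 2 (12.5%) higher and 1 (6.25%) lower, where all compared genes gave 5.9% and 4.34%. Tlr7, the endosomal receptor for single-stranded RNA, had 163 CPM in KO pDCs and 130 in WT pDCs, against 6.11 in KO and 3.85 in WT other dendritic cells. That is 76 UMIs in members and 12 in other dendritic cells, a fold of 28.9 (15.6 to 58.4), with too few UMIs to be eligible. Tlr9, the receptor for unmethylated DNA, had 0 UMIs in KO and 1 in WT members, and was not detectable at this depth beyond that. The level that a count of 0 allows was 10.8 CPM in KO pDCs. Ptprs, a receptor phosphatase that restrains pDC activation, was 16.1-fold higher (11.9 to 22.1), and Pld4, an endosomal nuclease that limits Toll-like receptor 9 ligands, was 5.42-fold higher (4.28 to 6.87). Unc93b1, the chaperone of the endosomal receptors, had 239 CPM in KO and 290.2 in WT pDCs, against 190 in KO and 204 in WT other dendritic cells. Ifih1 (MDA5), a cytosolic RNA sensor, was lower, with 25.3 CPM in KO and 16.8 in WT pDCs, against 183 in KO and 134 in WT other dendritic cells. Irf7, the master factor of interferon transcription, had only 18 UMIs in KO and 6 in WT members.

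No UMI of any listed interferon alpha gene, of Ifnb1, Ifne, Ifnl2 or Ifnl3 was found in a member. Across all members a count of 0 allows up to 5.83 CPM. Of 31 ligand and cytokine genes, 11 had a UMI in members and 7 were compared, with 0 higher and 3 (42.9%) lower. All compared genes gave 5.9% higher and 4.34% lower. The 3 were Il12b, Cxcl9 and Ccl5. Against cDC1 alone Il12b and Ccl5 were not past 2-fold (log2 -0.88 and -0.49), nor was Cxcl9 against cDC2 alone (0.16), where Il12b was at 0 in both. Il12b, a subunit of interleukin 12, had 0 UMIs in members and 221 in other dendritic cells. Ccl4, an inflammatory chemokine, had 1482 CPM in KO pDCs and 778 in WT pDCs, against 555 in KO and 438 in WT other dendritic cells. It passed 2-fold pooled, at a fold of 2.30 (2.08 to 2.54), but not in each library. Of 40 genes of the interferon receptor and response, 16 were compared, with 2 (12.5%) higher and 1 (6.25%) lower. Ifnar2, a chain of the type I interferon receptor, was 6.85-fold higher (5.67 to 8.29) and Bst2 was the other higher gene, while Oasl1 was lower. Of 27 compared secretory genes 2 (7.41%) were higher, near the 5.9% over all compared genes. They were Ern1, the stress sensor IRE1, and its target Xbp1, needed for secretion in plasma cells and pDCs. Their folds were 3.62 (3.12 to 4.21) and 3.68 (3.08 to 4.38). Against cDC2 alone neither was past 2-fold (log2 0.69 and 0.93).

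The main class II genes and costimulatory genes were lower in pDCs. Of 17 listed genes of major histocompatibility complex (MHC) class II and costimulation, 16 were compared, with 0 higher and 8 lower and a median log2 ratio of -1.42. H2-Aa, an alpha chain of class II, had 867 CPM in KO pDCs and 883 in WT pDCs, against 3287 in KO and 3682 in WT other dendritic cells. Cd74, the invariant chain, had 1207 CPM in KO and 1914 in WT pDCs, against 4962 in KO and 7070.0 in WT other dendritic cells. H2-Ab1 and H2-Eb1 were lower as well, and both stood at 0.18 to 0.19 of the level in other dendritic cells. In the KO library 54.7% of the H2-Ab1 UMIs lay in 1 member, and the median cell was at 121 CPM in KO and 315 in WT. For H2-Aa, H2-Eb1 and Cd74 the highest KO member held 41.7%, 48.9% and 37.7% of the UMIs. Their median cells were at 404, 178.5 and 485 CPM in KO and at 819, 410 and 1688 in WT. The costimulatory genes Cd80, Cd86 and Cd83 and the peptide exchange gene H2-DMb1 were the other lower genes. H2-DMb1 was not past 2-fold against mature cells (log2 -0.49) or cDC2 alone (-0.83). Cd86 had 145 CPM in KO and 79.9 in WT pDCs, against 995 in KO and 615 in WT other dendritic cells. Ctss, the protease that trims the invariant chain, was at 502 CPM in KO and 543 in WT pDCs, against 343 CPM in KO and 343 in WT other dendritic cells. Of the 18 compared MHC class I genes, 0 were higher and 0 lower, where all compared genes gave 5.9% and 4.34%.

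Genes of conventional dendritic cells were lower in pDCs or not called. Of 20 listed, 17 were compared, with 0 higher and 7 (41.2%) lower. All compared genes gave 5.9% higher and 4.34% lower. Xcr1 and Clec9a gated the cDC1, so their difference is part of the gate, and Xcr1 was 1 of the 7. Cst3, a cysteine protease inhibitor that marks conventional dendritic cells, had the lowest log2 ratio of the named genes, -3.46. It was at 752 CPM in KO pDCs and 530 in WT pDCs, against 6939 in KO and 8486 in WT other dendritic cells. Of its KO pDC UMIs 53.4% lay in 1 member, and the median member was at 298 CPM in KO and 364 in WT. Naaa, a lysosomal amidase of cDC1, had 10.8 CPM in KO and 12.6 in WT pDCs, against 546 in KO and 613 in WT other dendritic cells. Zbtb46, the transcription factor that defines conventional dendritic cells, had 18.1 CPM in KO and 12.6 in WT pDCs, against 168 in KO and 107 in WT other dendritic cells. Wdfy4, needed for cross-presentation, and Ifi205 were also lower. Flt3 and Itgax, shared by both lineages, were not called, at folds of 1.44 (1.13 to 1.82) and 0.901 (0.672 to 1.19). The other 11 genes of the 15 lowest were Htr7, Tmtc2, Lrrk2, Ccl22, Basp1, Cdk14, Ly75, Ccser1, Marcks, Plbd1 and Cd86. Against mature cells alone, 7 of the 15 were not past 2-fold, Wdfy4 (log2 -0.09), Naaa (-0.09), Cdk14 (-0.09), Plbd1 (-0.02), Ifi205 (-0.47), Lrrk2 (-0.60) and Ccser1 (-0.99), nor was Xcr1 of the list (-0.17). Against cDC2 alone, which are only 8 WT cells, 5 were not, Wdfy4 (-0.85), Naaa (-0.60), Ccl22 (-0.11), Ifi205 (0.025) and Ccser1 (0.055), and against cDC1 alone Ccl22 (-0.56) was not.

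**Figure D4:**
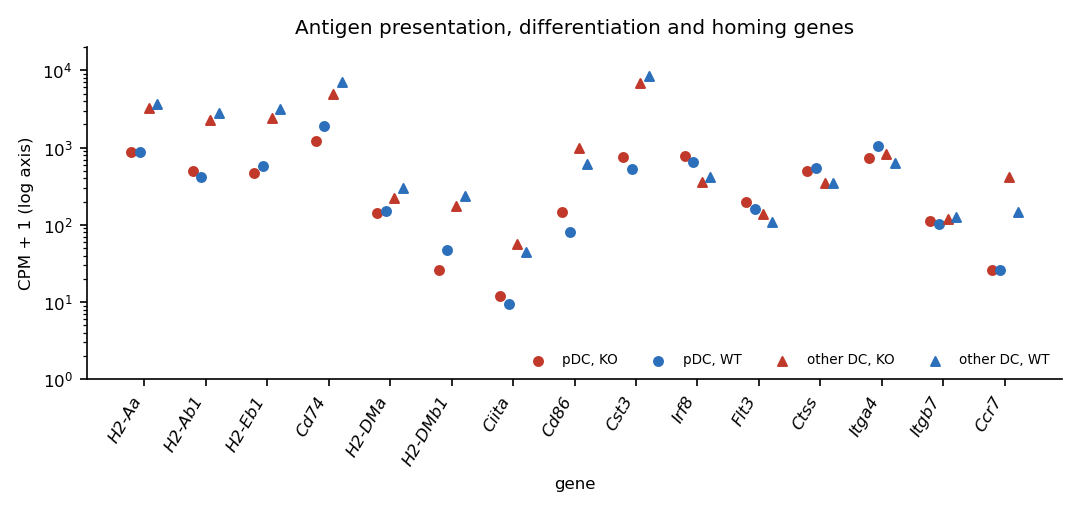
Levels of 15 genes of antigen presentation, dendritic differentiation and homing, as CPM plus 1 on a log axis, in pDCs (circles) and other dendritic cells (triangles) of the KO (red) and WT (blue) libraries; each symbol is 1 summed set of cells. H2-Aa, H2-Ab1, H2-Eb1, Cd74, Cd86, Cst3 and Ccr7 lie lower in pDCs of both libraries, and Itga4 and Itgb7 lie near the other dendritic cells.

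Homing receptors differed gene by gene. Of 22 listed, 13 were compared, with 2 (15.4%) higher, Ccr9 among them, and 2 (15.4%) lower (Ccr7 and Itgae). All compared genes gave 5.9% and 4.34%. Itgae, the alpha E chain that holds cells at the epithelium, had 7.23 CPM in KO and 0 in WT pDCs, against 145 in KO and 154 in WT other dendritic cells. Against mature cells alone Itgae was not past 2-fold (log2 -0.29). Ccr7, which guides cells to lymph nodes, gated the mature cells, and it was not past 2-fold against cDC1 (-0.53) or cDC2 (0.59) alone. Itga4 and Itgb7, whose products pair as the gut homing integrin, were at folds of 1.20 (1.08 to 1.33) and 0.881 (0.648 to 1.18), so neither was called.

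Genes shared with B cells appeared as well. Ighm, the heavy chain of immunoglobulin M that mouse pDCs transcribe, had 466 CPM in KO pDCs and 568 in WT pDCs, against 32.9 in KO and 43.3 in WT other dendritic cells, a fold of 13.7 (10.7 to 17.6). Ebf1, a B cell factor, was not called, at 57.8 CPM in KO and 156 in WT pDCs against 138 in KO and 28.8 in WT other dendritic cells. Of its WT pDC UMIs 43.2% lay in 1 member. Without members at 5 or more UMIs of other cell types' markers, Ebf1 among them, it was at 52.5 CPM in KO and 40.4 in WT. Igkc, the kappa light chain constant gene, had UMIs in all 53 members, at 1464 CPM in KO and 11082 in WT pDCs, against 1417 in KO and 6866 in WT other dendritic cells. Of the WT Igkc UMIs, 67.8% lay in 1 member. The part of plasma cell RNA in these values, free or in a doublet, was not tested.

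Of 29 listed p53 targets, 10 were compared, with Trp53inp1 higher and Rps27l and Mdm2 lower. Of 11 compared genes of the BCL2 family, 0 were higher and 2 lower, Bcl2a1d and Bcl2a1b, which inhibit cell death. Of 24 compared immediate early genes, 0 were higher and 3 lower (Nr4a2, Junb and Nr4a3), and of 13 compared cell cycle genes, 0 were higher and 1 lower (H2afz). Of 12 compared heat shock genes, 0 were higher and 0 lower. Among 15 compared BAF subunits, Actb was lower and 0 were higher. Over all compared genes 5.9% were higher and 4.34% lower. Mdm2 was not past 2-fold against mature cells alone (log2 -0.30), Nr4a3 against cDC1 alone (-0.57), nor Rps27l (-0.91), Bcl2a1b (-0.90) and Actb (-0.81) against cDC2 alone. Arid1b, a large subunit, passed 2-fold pooled with a log2 ratio of 1.06 but not in each library.

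Members varied in depth and in how many restricted markers they showed. Every member had at least 1 of the 6 restricted markers, and the median was 4. The 6 members at the threshold of 3 Siglech UMIs, 4 KO and 2 WT, had a median of 7.5 of the 13 markers. Just outside, 3 cells with 2 Siglech UMIs that met the other limits had a median of 6, and 20 cells with 1 Siglech UMI had a median of 4, with 0 of 20 at 3 or more restricted markers. A further 12 cells met the Siglech and Tcf4 limits and were left out for a Cd3 or Pax5 UMI, 4 KO and 8 WT. They had a median of 10 of the 13 markers, and 10 of 12 had 3 or more restricted ones, close to the members. In all kept cells, Cd3e or Cd3d had a UMI in 19.8% of KO and 44.1% of WT cells, and Pax5 in 28.0% of KO and 10.6% of WT cells. Of the 53 members, 3 KO and 4 WT cells had 5 or more UMIs of markers of T, B, plasma, monocyte, neutrophil, epithelial or stromal cells.

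The shares of pDCs differed between the libraries by less than counting error. Members were 0.2995% of kept KO cells (0.196 to 0.439) and 0.248% of kept WT cells (0.163 to 0.360), a ratio of 1.21 (0.678 to 2.15). With the Siglech and Tcf4 limits alone, the shares were 0.346% in KO and 0.321% in WT, a ratio of 1.08 (0.638 to 1.80). Among pDCs and other dendritic cells together, pDCs were 23.6% in KO (16.1 to 32.7) and 25.2% in WT (17.3 to 34.6). The intervals exclude neither an equal share nor a share up to 2.15 times higher in KO, and the sort on GFP and tdTomato can set the denominators.

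Dpf2 was lower in the KO library but near the limit of detection in so few cells. Dpf2 (GRCm38 chromosome 19, 5896516 to 5913010) had 5 UMIs in KO pDCs and 13 in WT pDCs, or 18.1 CPM in KO (5.87 to 42.2) and 54.7 CPM in WT (29.1 to 93.5), a fold of 0.331 (0.0923 to 0.988). In all other kept cells it was at 19.3 CPM in KO and 32.96 in WT. Which part of the gene was deleted is not known here, so the remaining counts check the labels only in direction.

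KO and WT pDCs were compared at 1147 genes that had 100 or more UMIs in members and were seen in 10% or more of the members of either library. In KO pDCs 13 of them (1.13%) stood 2-fold or more above WT and 13 (1.13%) stood 2-fold or more below, around a median log2 ratio of 0.06. Of the pDC lists, 8 transcription factors gave 0 higher and 0 lower, 14 surface genes gave 1 higher and 3 lower, and 13 further pDC genes gave 0 and 0. Bst2, Cox6a2 and Tcf12 were among the genes within 2-fold, at log2 ratios of -0.14, -0.04 and -0.30. Ccr9, at 1413 CPM in KO and 913 in WT pDCs, had a log2 ratio of 0.60, short of the call. The 3 immunoglobulin genes Igkc, Igha and Jchain were among the 13 lower ones, and 65.5% to 76.3% of their WT UMIs lay in 1 cell.

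The 3 lower surface genes were Ly6d, Ly6a and Ly6c2, which lie on chromosome 15 and encode small lipid-anchored surface proteins. The higher one was Cadm1. Ly6d had 170 CPM in KO pDCs (125 to 226) and 820.1 in WT pDCs (709 to 944), a fold of 0.207 (0.147 to 0.286). It had UMIs in 15 of 26 KO and 25 of 27 WT members, and the median cell was at 107 CPM in KO and 546 in WT. Cells of the libraries overlapped, since KO cells reached 1811 CPM and WT cells began at 0. Ly6a (Sca-1) had 112 CPM in KO and 463 in WT pDCs, a fold of 0.242 (0.157 to 0.364), and UMIs in 8 of 26 KO and 20 of 27 WT members. Ly6c2 had 329 CPM in KO and 791 in WT pDCs, a fold of 0.416 (0.320 to 0.537), and UMIs in 15 of 26 KO and 26 of 27 WT members. Its log2 ratio of KO over WT was -1.15, and it was short of 2-fold with a Siglech threshold of 5 UMIs (-0.66) and with 200 CPM added (-0.91). The direction was the same outside pDCs. In all other kept cells Ly6d was at 54.9 CPM in KO and 208 in WT, Ly6a at 74.0 in KO and 216 in WT, and Ly6c2 at 50.4 in KO and 143 in WT. In other dendritic cells Ly6d was at 5.35 CPM in KO and 44.2 in WT. Plasma cells also differed, with Ly6d at 219 CPM in KO and 735 in WT. Free RNA was not measured, and any part of it in the pDC difference was not tested. After thinning to 1000 UMIs, Ly6d was found in 30.8% of KO members (14.3 to 51.8) and 40.7% of WT members (22.4 to 61.2), intervals that overlap, and Ly6a in 11.5% (2.45 to 30.2) of KO and 37.0% (19.4 to 57.6) of WT members.

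**Figure D5:**
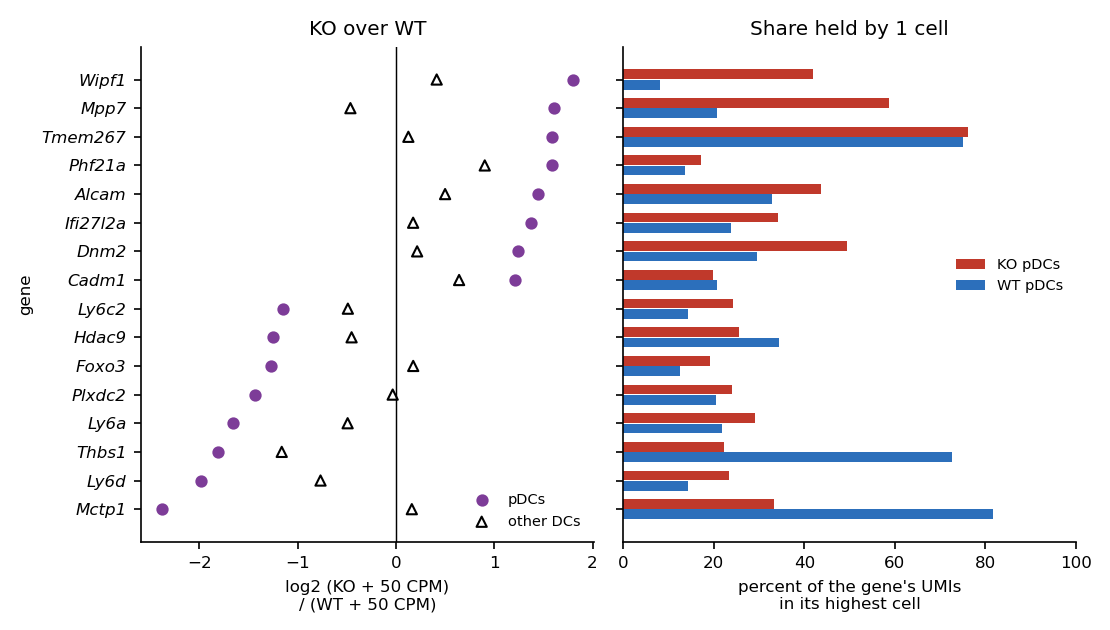
Log2 ratio of KO over WT after adding 50 CPM (left), in pDCs (filled circles) and other dendritic cells (open triangles), for 16 genes, the 8 highest and the 8 lowest by their ratio in pDCs, and the percent of each gene's pDC UMIs that lie in its highest cell (right; KO bars above WT bars). Ly6d and Ly6a lie below 0 in both cell types, and 1 cell holds over 70% of the WT UMIs of Mctp1 and Thbs1 and of the KO and WT UMIs of Tmem267.

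Among the 8 highest genes, Phf21a, Wipf1 and Cadm1 were among those spread over several cells. Phf21a, which reads unmethylated histone H3, had 379 CPM in KO pDCs and 92.5 in WT pDCs, a fold of 4.10 (2.57 to 6.82), with UMIs in 22 of 26 KO and 15 of 27 WT members. Other dendritic cells had 196 CPM in KO and 81.7 in WT. Wipf1, a partner of the actin regulator WASP, had 1019 CPM in KO and 257 in WT pDCs, and the highest KO cell held 41.8% of its UMIs. Its median cell was at 509 CPM in KO and 228 in WT. Cadm1, an adhesion molecule that is also a marker of cDC1, had 726 CPM in KO and 286 in WT pDCs, a fold of 2.54 (1.92 to 3.395), and UMIs in 20 of 26 KO and 12 of 27 WT members. Among other dendritic cells it had 1269 CPM in KO and 795 in WT, and in cDC1 alone 1606 CPM in KO and 875 in WT. With 200 CPM added in place of 50, Phf21a and Cadm1 were at log2 ratios of 0.99 and 0.93, short of 2-fold. The other 5 were Tmem267, Mpp7, Alcam, Dnm2 and Ifi27l2a. Tmem267 had 76.2% of its KO UMIs in 1 cell, and only 6 of 26 KO and 5 of 27 WT members had any. Mpp7, Alcam and Dnm2 were at log2 ratios of 1.61, 1.44 and 1.24 and at 0.67, 0.84 and 0.55 without the deepest member of each library. Alcam had UMIs in 23 of 26 KO and 24 of 27 WT members. Its median cell was at 1025 CPM in KO and 233.5 in WT, and the highest KO cell held 43.8% of its UMIs. Ifi27l2a, an interferon induced gene, was at 1.37, and at 0.64 without the 7 members that carried other cell types' markers.

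Among the 8 lowest genes, Foxo3 and Plxdc2 were spread over cells besides the Ly6 genes. Foxo3, a transcription factor of survival and quiescence, had 152 CPM in KO pDCs and 437 in WT pDCs, a fold of 0.347 (0.237 to 0.501), with UMIs in 17 of 26 KO and 25 of 27 WT members. Other dendritic cells had 74.9 CPM in KO and 60.6 in WT. Plxdc2, a plexin domain receptor, had 90.3 CPM in KO and 328 in WT pDCs, with UMIs in 12 of 26 KO and 16 of 27 WT members. With 200 CPM added, both were short of 2-fold at log2 -0.86, and Foxo3 was at -0.99 with the Siglech and Tcf4 limits alone, a setting chosen after seeing the data. Mctp1, at a log2 ratio of -2.38, had 81.7% of its WT UMIs in 1 cell and was at -0.62 without the deepest member of each library. Thbs1, a matrix glycoprotein, had 72.6% of its WT UMIs in 1 cell and was at 0.20 without the 7 members that carried other cell types' markers. Hdac9, a histone deacetylase, was at -1.25 and at -0.63 without the deepest members.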

How the data were processed

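Single-cell RNA was measured in 2 libraries, 1 per genotype. The authors deposited raw UMI counts per gene and cell, which came from Cell Ranger 7.0.0 according to the header lines (per the file headers). GRCm38 is the build in the submitters' processing notes. Neither an annotation release nor the counting of introns is given in the sources used here. Cells with at least 500 UMIs, 200 genes and at most 20% mitochondrial UMIs were kept. Doublets were called with Scrublet (scanpy 1.11.5) and kept. UMIs were summed per set of cells and scaled to 1000000 (CPM), and log2 ratios were taken after adding 50 CPM. A gene was compared from 100 UMIs and 10% of cells, and called at 2-fold. Intervals are 95% and exact (Poisson for levels, Clopper-Pearson for shares, conditional binomial for ratios, with scipy 1.17.1), and cover counting error only. For shares of cells with a UMI, cells were thinned to 1000 UMIs. The ratio calculation was tested on simulated data.

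The libraries held 49590755 UMIs in 8794 barcodes (KO) and 64786549 in 10958 (WT). A gene with 0 UMIs could be at up to 10.8 CPM in KO and 12.6 in WT pDCs (3 counts of the total). Named genes were members of the lists, the 20 highest and 15 lowest called genes of pDCs over other dendritic cells, and the 8 highest and 8 lowest of KO over WT by log2 ratio. Genes of the membership rule, immunoglobulin, T cell receptor, mitochondrial, sex-linked and unnamed genes were left out of these rankings. Immunoglobulin genes were named after their values were seen. The members and lists were chosen with earlier results of these data known. Alternatives covered the Siglech, Tcf4 and mitochondrial limits, doublets, the added level, the UMI minimum, scaling, single members and the makeup of the other dendritic cells. A few genes of these lists are not reported here.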

Additional observations from a re-analysis of the deposited data

Results flagged for a closer look

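Mpp7, a membrane scaffold gene of the MAGUK family, had a log2 ratio of KO over WT of 1.61 in pDCs and of -0.46 in other dendritic cells, so the genotypes stood in opposite order in the 2 kinds of cell. In other dendritic cells it had 755 UMIs in KO and 847 in WT, a fold of 0.708 (0.641 to 0.782). Those cells differ in makeup, with 26 mature cells in KO and 4 in WT. In cDC1 alone, a comparison chosen after seeing the data, Mpp7 was at 468 CPM in KO and 778 in WT, a log2 ratio of -0.68. In KO pDCs 58.8% of the Mpp7 UMIs lay in 1 cell. The difference between the cell types was not tested.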

How the results depend on the processing

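Each genotype is 1 library, so no value has a replicate check, and sort, animals and genotype cannot be told apart. No paired analysis was possible because the result comes from no test and each genotype is 1 library. The KO over WT ratio of the pDC share among all kept cells was 1.08 to 1.32 over the settings run, but 0.937 among pDCs plus other dendritic cells and 0.977 outside the B, T and plasma gates, where the ratio is below 1. Counts of genes past 2-fold moved by over 1.5 times under some settings. With 10 CPM added, 389 genes were higher and 382 lower in pDCs, and 24 were higher in KO. With 200 CPM added, 100 were higher and 55 lower in pDCs, and 3 were higher and 7 lower in KO. A minimum of 50 UMIs gave 21 higher and 31 lower in KO, and one of 200 UMIs gave 5 and 6. A Siglech threshold of 5 gave 8 lower in KO. Against cDC2 alone 83 genes were lower in pDCs, and in the KO library alone 303. Leaving out the 7 members with other cell types' markers, chosen after seeing the data, gave 8 higher in KO. The sign turned for Ifi205 (0.025) and Ccser1 (0.055) against cDC2 alone, and for Thbs1 (0.20) without those 7 members. All 20 highest genes stayed past 2-fold under every setting run. In each library alone the call had already required this. Of the 16 genes named for KO over WT, 11 stayed past 2-fold without the deepest member of each library, 10 without the 7 members and 7 with 200 CPM added, where Ly6c2, Cadm1, Phf21a, Plxdc2, Foxo3, Tmem267, Ifi27l2a, Dnm2 and Hdac9 fell short. Which causes lie behind these changes was not tested.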
